A study of Mus musculus with 48 samples.

Results

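Rab GTPases were followed as 1 gene family through every sample group of a mouse RNA sequencing series on RNA in the axons of retinal ganglion cells. Members were taken by name: all genes whose mouse symbol is Rab, a number and at most a paralog letter and a further digit, with Ensembl identifiers matched to symbols. The rule found 59 of the 54331 genes in the tables, and it used no measured value. The values are estimated counts per gene and TPM (a share of each library's transcripts, corrected for transcript length).

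The series holds 48 libraries in 15 groups. Retinal ganglion cells form the optic nerve, whose axons end in the lateral geniculate nucleus (LGN) of the thalamus and in the superior colliculus (SC) of the midbrain. In EU libraries, newly made RNA was labelled with ethynyl uridine injected into the eye and captured from the target region, so that labelled RNA found there should have been carried in axons. Axon-TRAP (translating ribosome affinity purification) libraries hold ribosome-bound RNA pulled down from the target region. The wild-type, uninjured groups were SC EU at postnatal day 10 (P10, 3 libraries), P10 with a 4-day chase (3), P14 (5) and 8 weeks (3), LGN EU at P14 (2), SC TRAP at P10 (3) and P14 (5), LGN TRAP at P14 (3), immunopanned ganglion cells at P14 as total RNA (3) or EU-captured RNA (3), and eye cells sorted by FACS at P14 (3). Libraries labelled fmr1ko, all uninjured and at P14, were SC EU (3), SC TRAP (3) and eye FACS (3). A last SC EU group (3) combined the sarm1ko genotype, axotomy and a 7-day chase from P14, and so an age at collection beyond P14. Those factors cannot be told apart in it. The EU protocol pooled the colliculi of 3 animals. The sources used here do not give the mouse line that carries the ribosome tag, the cells that express it, or the knockout alleles. No label states that replicate libraries came from separate animals, so p-values measure only the spread between these libraries, which may be technical.

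Rab proteins are small GTPases that switch between a GTP-bound, membrane-attached form and a GDP-bound, soluble form. Exchange factors turn them on, GTPase-activating proteins turn them off, and GDP dissociation inhibitors lift them from membranes. Each compartment carries its own set, and in axons the best known are Rab3 on synaptic vesicles, Rab5 and Rab4 on early endosomes, Rab11 on recycling endosomes and Rab7 on late endosomes that move back to the soma.

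Estimated counts per library summed to between 2558141 and 48263706. Wild-type SC EU and SC TRAP libraries at P14 come from 2 series of title codes, and comparisons used the second series (replicates 3 to 5) unless stated. The TPM of 13 ganglion cell markers summed to between 2930 and 4660 in SC EU libraries at P14, but only to between 126 and 415 in the immunopanned EU libraries, where 8 rod photoreceptor markers summed to between 2820 and 62700. SC EU libraries at P14 also held oligodendrocyte markers (8 genes, 6300 to 10400 TPM, against 10.1 to 30.4 in the panned cells). Replicate 2 of the TRAP libraries labelled fmr1ko stood apart, with rod markers at 60600 TPM against 50.3 and 54.1 in the others and ganglion cell markers at 35.1. Fmr1 ranged from 2.27 to 15.4 TPM in SC EU libraries labelled fmr1ko and from 0 to 6.99 in wild type, so it was not lower there. Sarm1 ranged from 0.795 to 7.63 TPM in the sarm1ko group and from 4.8 to 39.6 in wild-type SC EU at P14. A gene-level value cannot show whether reads come from outside a deleted part. In such bulk libraries fewer cells or axons of a kind and less RNA in each cannot be told apart.

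The summed TPM of the 59 genes ranged from 2811 to 5875 in the 5 SC EU libraries at P14, from 3154 to 6669 in the 5 SC TRAP libraries and from 796 to 1739 in the panned EU libraries. The panned libraries lay below all libraries of both axonal groups. Total RNA of panned cells gave the lowest sums, 136 to 324, and eye FACS cells gave 1742 to 2059. In the axotomized sarm1ko group the sums were 489, 839 and 1682, again below every wild-type P14 SC EU library. Between 45 and 49 members reached 1 TPM in each SC EU library at P14, and all 59 reached 1 TPM in at least 1 library of the series.

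**Figure D1:**
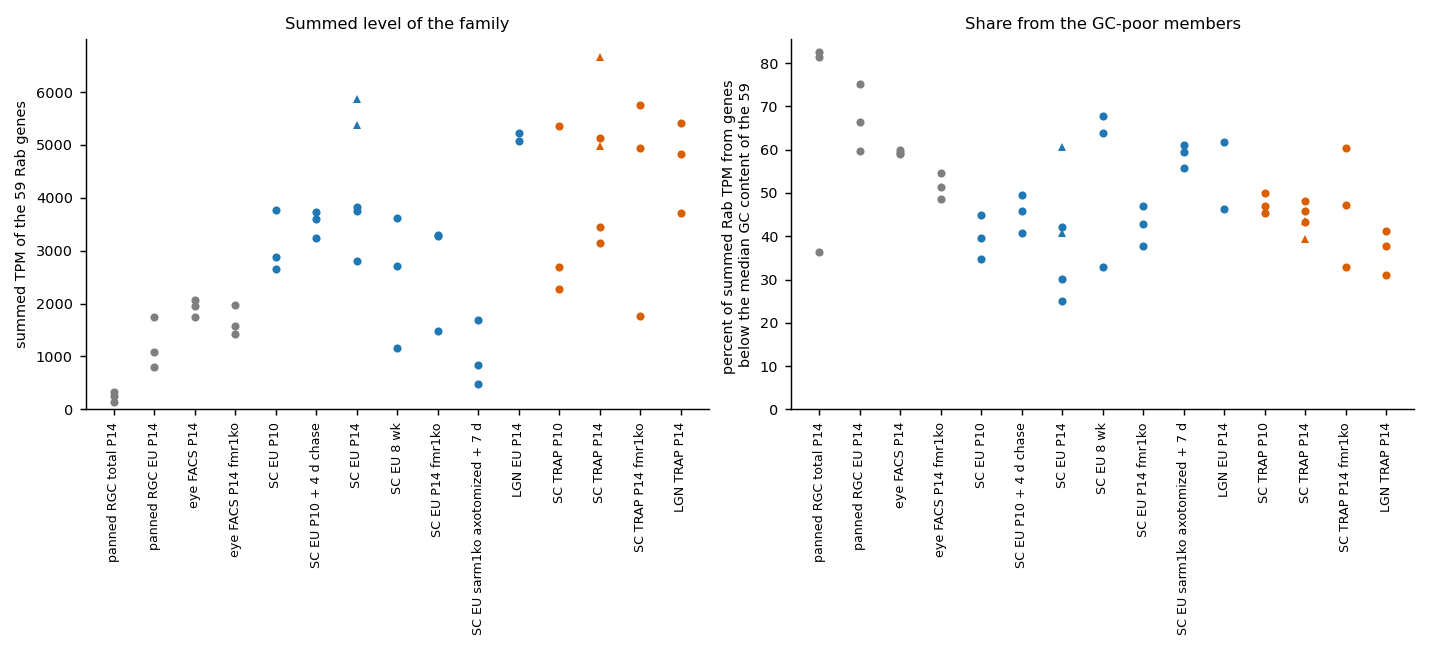
Summed TPM of the 59 Rab genes (left) and the percent of that sum that comes from members below the family's median transcript GC content (right), 1 point a library; grey is eye or purified cells, blue EU, orange axon-TRAP, and triangles mark the first title-code series of the P14 SC groups. The sums of the axotomized sarm1ko group (489 to 1682) sit below those of wild-type SC EU at P14 (2811 to 5875), and its GC-poor share is 55.7 to 61.2 percent against 25 to 60.7 there.

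Rab3a, which docks synaptic vesicles at release sites, led the family in axonal RNA. Its TPM in SC EU at P14 was 650 and 1680 in replicates 1 and 2 and 1450, 1644 and 773 in replicates 3 to 5. It made up between 11.1 and 43.0 percent of the summed Rab TPM in these libraries. SC TRAP libraries at P14 gave 551 to 2340 (median 1370), which overlaps the EU range, while panned EU cells gave 74.7, 142 and 292. In eye FACS cells the range was 275 to 336.

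By median TPM in SC EU at P14, the next members were Rab14 (406, endosome to Golgi traffic), Rab11b (271, recycling endosomes), Rab7 (243, late endosomes), Rab6b (149, Golgi, the neuronal Rab6), Rab4b (121) and Rab4a (119, fast endosomal recycling), then Rab24 (117, autophagy). Neighbours in this order overlapped over the 5 libraries: Rab14 ranged from 260 to 665 and exceeded Rab3a in replicate 1, and Rab11b ranged from 174 to 397 against 123 to 439 for Rab7. The other Rab3 genes were lower, with medians of 73.3 TPM for Rab3b, 62.9 for Rab3c and 1.61 for Rab3d. Rab27a and Rab27b, which serve secretory granules and exosomes, had medians of 3.83 and 1.62 TPM. The median was 0 for 8 members, among them Rab17, Rab25, Rab32, Rab38 and Rab20.

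Replicates 1 and 2, with 2558141 and 6034159 counts, differed from replicates 3 to 5 for several members. Rab6a, a Golgi Rab, was at 547 and 89.7 TPM there against 8.09, 14.3 and 16.5. Rab5a, the early endosome Rab, was at 68.5 and 19.0 against 0.857, 0.925 and 2.88, and Rab11a at 170 and 290 against 48.9, 41.5 and 38.4. Counts of members called with all 5 libraries a group are therefore given beside the comparisons that use these groups.

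**Figure D2:**
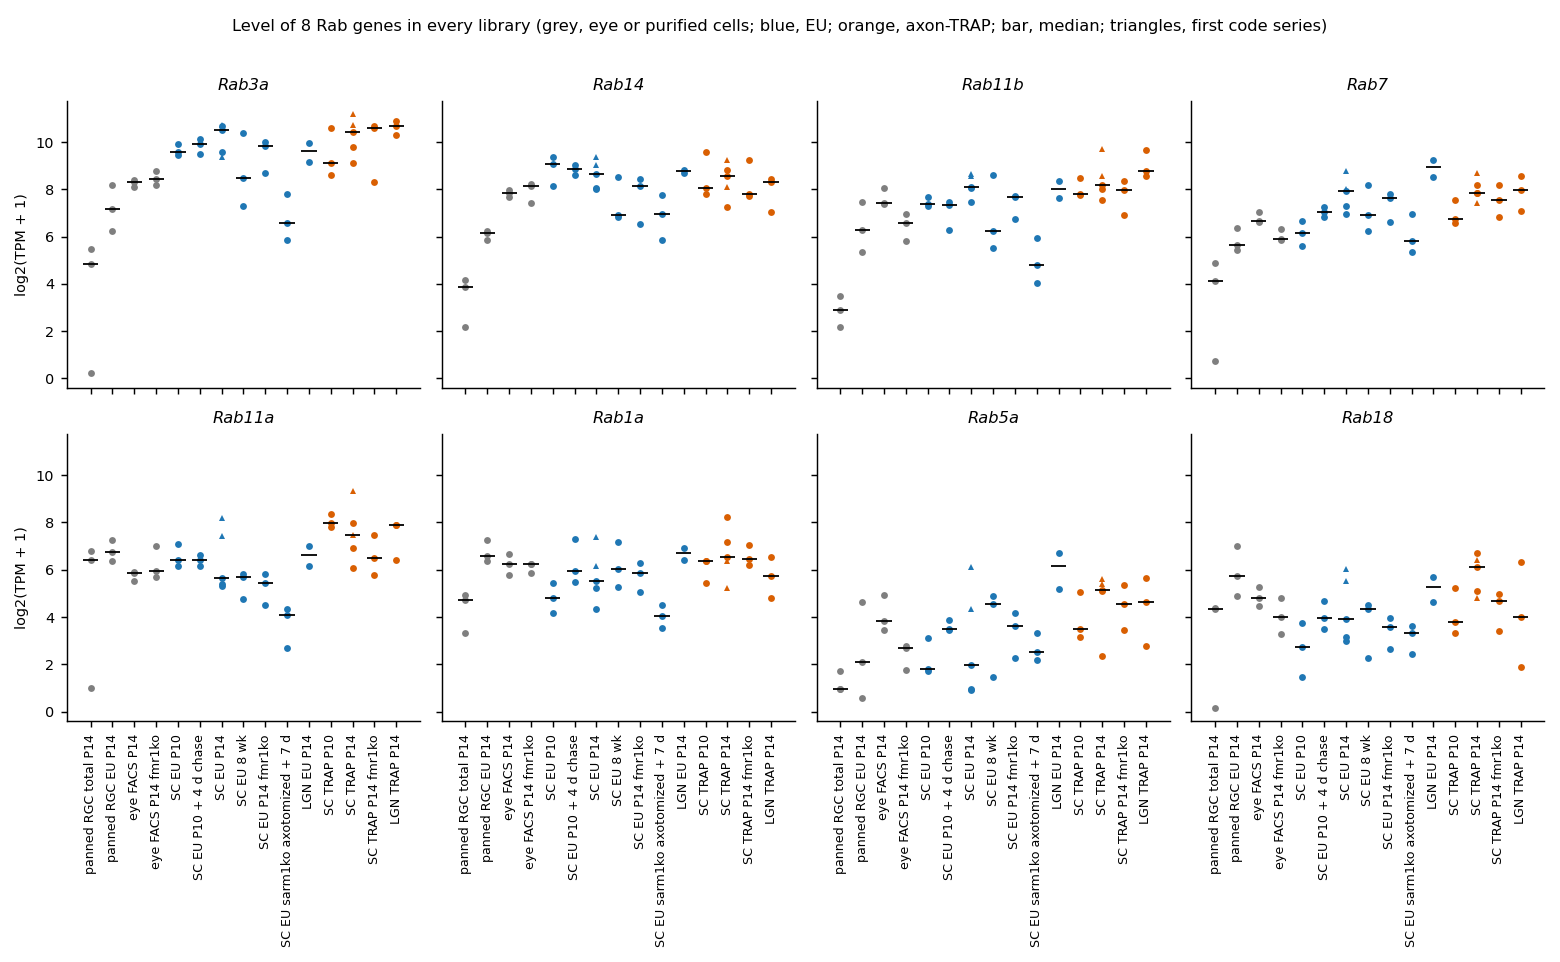
Level of 8 Rab genes in every library, as log2(TPM + 1), by sample group; bars are group medians and triangles mark the first title-code series. Rab3a is the highest of the 8 by median in SC EU at P14 (1450 TPM) and Rab5a the lowest (2.88), and in the axotomized sarm1ko group Rab3a lies between 56.4 and 222 TPM.

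Members of the family differ in base composition as well as in role, and the letters show how far. The 42 bases shown here encode the phosphate-binding loop, the stretch that grips the nucleotide, with 3 codons on each side. They were chosen because the Rab11, Rab1 and Rab5 paralogs shown encode the same amino acids there with partly different codons. They are from GENCODE M21 transcripts on GRCm38, on the coding strand, 5′ to 3′, and capitals mark codons that end in G or C.
Rab11a: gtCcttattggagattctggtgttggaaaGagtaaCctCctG
Rab11b: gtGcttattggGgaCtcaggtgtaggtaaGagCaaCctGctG
Rab1a: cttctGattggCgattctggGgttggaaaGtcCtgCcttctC
Rab1b: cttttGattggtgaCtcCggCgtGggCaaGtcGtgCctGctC
Rab5a: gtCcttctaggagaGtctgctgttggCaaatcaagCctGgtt
Rab5b: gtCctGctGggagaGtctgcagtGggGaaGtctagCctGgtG
Rab5c: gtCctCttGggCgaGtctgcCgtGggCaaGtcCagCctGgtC
Rab3a: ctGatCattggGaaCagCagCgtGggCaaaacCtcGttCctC

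Of the 14 codons in this window, 5 end in G or C in Rab11a and 8 in Rab11b, 7 in Rab1a and 11 in Rab1b, 5 in Rab5a, 10 in Rab5b, 13 in Rab5c and 12 in Rab3a. Rab11a (minus strand, chr9:64728386-64728427) and Rab11b (minus strand, chr17:33749934-33749975) differ at 8 bases, all at the last base of a codon. Rab1a (plus strand, chr11:20215649-20215690) and Rab1b (minus strand, chr19:5105190-5105231) differ at 9 bases, 8 of them at the last base of a codon. Rab5a (plus strand, chr17:53483982-53484023) and Rab5c (minus strand, chr11:100719967-100720008) likewise differ at 9 bases, 8 of them at such positions, whereas Rab5a and Rab5b (minus strand, chr10:128686800-128686841) differ at 8, all at such positions. The Rab3a window (plus strand, chr8:70755931-70755972) lies, like the others, in the coding part of 1 exon.

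Over whole coding sequences, the last base was G or C in 39.8 percent of Rab11a codons and 67.9 percent of Rab11b codons, in 46.3 percent for Rab1a and 68.7 percent for Rab1b, and in 31.6 percent for Rab5a, 56.3 for Rab5b and 64.1 for Rab5c. The GC content of the longest transcript ranged from 36.8 to 59.5 percent over the family, with a median of 49.1. It was 39.5 percent for Rab11a, 48.1 for Rab11b, 42.0 for Rab1a, 58.9 for Rab1b and 55.0 for Rab3a.

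In several comparisons fold changes of the members ran with this composition. Across the members tested, Spearman's rho between log2 fold change and transcript GC content was 0.60 for SC EU against panned EU (53 genes), -0.82 for 8 weeks against P14 in SC EU (52), -0.71 for the chase (52), -0.82 for fmr1ko against wild type in SC EU (52) and -0.81 for the axotomized sarm1ko group (52). The same measure over all tested genes was 0.44, -0.64, -0.53, -0.48 and -0.71, so the relation is not particular to Rab genes. These are descriptions across genes, which share the libraries and are not independent replicates. For TRAP against EU in SC the members gave -0.56 at P14 and -0.25 at P10, where all genes gave -0.15 and 0.17, and in LGN both gave 0.58. With the GC trend removed as described below, the members gave -0.40, -0.52 and -0.43 in these comparisons. All genes then gave 0.01, -0.02 and 0, so that fit did not remove the relation among the members. Of the 20 pairs of paralogs tested in the sarm1ko comparison, the GC-richer paralog had the lower log2 fold change in 17, and in 12 with the GC trend removed as described below. Before that removal the same count was 17 of 20 for 8 weeks against P14 and for fmr1ko in SC EU. It was 16 of 20 for the chase and for SC against LGN in TRAP. For TRAP against EU it was 14 of 20 in SC at P14, 13 of 19 at P10 and 2 of 20 in LGN. SC EU against panned EU gave 7 of 20. In the remaining comparisons the pairs leaned little: 9 of 20 for SC EU at P14 against P10, and 11 of 20 for SC TRAP at P14 against P10. There were 11 of 20 for fmr1ko in SC TRAP, 9 of 18 for fmr1ko in eye FACS cells and 9 of 19 for SC against LGN in EU. What underlies the relation was not tested. Where a fit with each library's trend on GC content removed, chosen after seeing the data, called any member, its result is given below; in the other comparisons it called none.

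**Figure D3:**
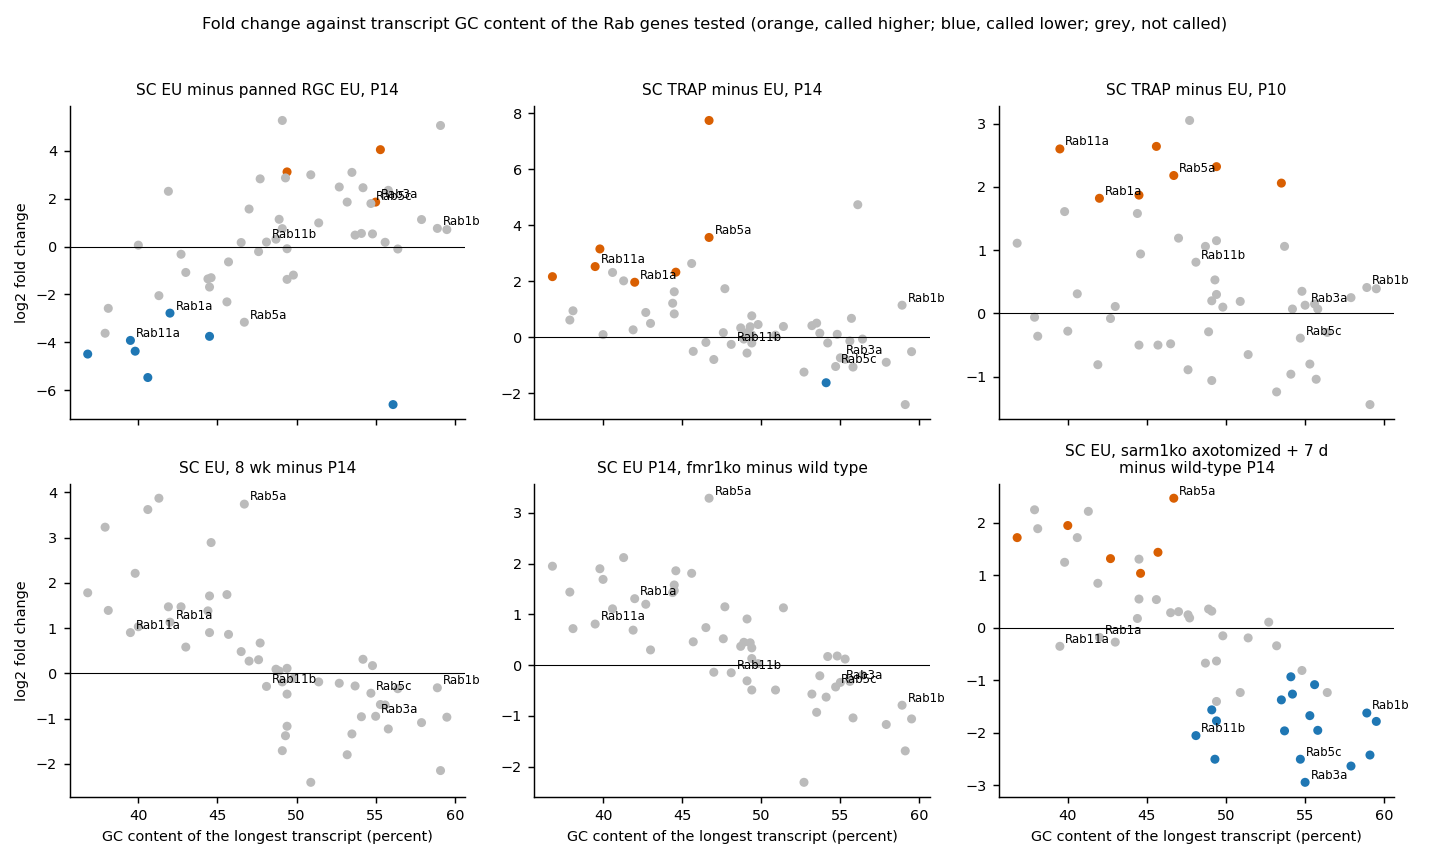
Log2 fold change of each tested Rab gene (vertical) against the GC content of its longest transcript in percent (horizontal) in 6 comparisons; orange and blue mark genes called higher or lower at an adjusted p below 0.05, and grey those not called. The points slope upward for SC EU minus panned EU (rho 0.60) and downward for the sarm1ko group (rho -0.81), with Rab11a and Rab1a to the left of Rab11b and Rab1b.

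The first comparison was SC EU (replicates 3 to 5) minus panned EU at P14, named axonal and somal labelled RNA here after their source. Rod markers exceeded ganglion cell markers in every panned EU library. Oligodendrocyte markers summed to between 7480 and 10400 TPM in these SC EU libraries. A difference in cell mix cannot be told apart from one between axon and soma, and its part in the calls was not tested. Called higher in axonal RNA were Rab3a, Rab15 and Rab31, and called lower were Rab1a, Rab8b, Rab10, Rab11a, Rab18, Rab20 and Rab28. Of 59 members, 53 passed the filter on low counts, and 10 were called, 18.9 percent, against 22.4 percent of all tested genes. The 3 called higher stood against 11 percent of all genes called higher, and the 7 called lower against 11.4 percent, so the called shares were near or under the background. The median log2 fold change was 0.19 over the members and 0.11 over all genes. Leaving out SC EU replicate 3 or replicate 4 left 3 members called, all lower, and with limma on TPM the split turned to 18 higher and 4 lower. Shares of all genes in these fits, and in the other leave-one-out and limma fits below, are not given. Such counts show how calls depend on library and fit, not a result about Rab genes. With all 5 SC EU libraries 11 were called, against 22 percent of all genes. With the GC trend removed, 6 of the 53 were called, 1 higher and 5 lower, against 20.5 percent of all genes; that fit moved the median of all genes to -0.62 and of the members to -0.51, so its fold changes are to be read against that shift. By role, 1 of 8 tested vesicle and secretory members was higher and none lower (median log2 2.08), 0 of 12 of the endoplasmic reticulum and Golgi were higher and 2 lower (median -0.97), and 1 of 10 of recycling and exocytosis was higher and 3 lower (median -0.58).

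Among vesicle Rabs, Rab3a had 248, 170 and 282 CPM (counts scaled to library size with TMM factors, with no correction for length) in panned cells and 882, 1120 and 533 in axonal RNA. The groups did not overlap, and the log2 fold change was 1.86 ± 0.51 (SE, adjusted p = 0.029, edgeR). With the GC trend removed it was 0.03 (adjusted p = 0.97), and the call was also lost with all 5 SC EU libraries and without SC EU replicate 3 or 4 or panned replicate 2 or 3. Rab3c, the Rab3 gene with the lowest GC content, was not called in this fit. It had 3.15, 40.1 and 10.8 CPM in panned cells and 68.6, 66.0 and 133 in axonal RNA, without overlap, and its log2 was 2.31 ± 0.89 (adjusted p = 0.093), 3.76 with the trend removed (adjusted p = 0.021) and 2.53 with all 5 SC EU libraries (adjusted p = 0.036). Rab15, of recycling endosomes, had log2 4.05 ± 1.06 (adjusted p = 0.026), from 5.62 ± 7.31 CPM (SD, n = 3) to 92.8 ± 19.1. Rab31, of endosome to Golgi traffic, had log2 3.12 ± 0.73 (adjusted p = 0.019), and neither Rab15 nor Rab31 was called with the trend removed.

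Among members lower in axonal RNA, Rab18 (lipid droplets and endoplasmic reticulum) had 224, 187 and 217 CPM in panned cells and 5.51, 6.80 and 18.1 in SC EU. Every panned library lay far above every axonal library, with log2 -4.37 ± 0.65 (adjusted p = 0.0040). Rab28, a Rab of cilia and photoreceptor outer segments, had 120, 90.4 and 102 against 3.61, 2.97 and 7.33 CPM (log2 -4.49 ± 0.65, adjusted p = 0.0037). Of the 10 called members, these 2 kept their call in all 13 alternatives, eye FACS cells as the soma and the GC fit included. Rab28 reached 131 to 178 TPM in eye FACS cells, whose rod markers summed to between 53200 and 93100 TPM; the part of rod RNA in its somal level was not tested.

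Rab11a, on recycling endosomes, had 133, 355 and 329 CPM in panned cells and 16.7, 18.2 and 18.9 in axonal RNA, without overlap. Its log2 fold change was -3.92 ± 0.58 (adjusted p = 0.0038), -2.12 (adjusted p = 0.054) with the GC trend removed and -3.08 (adjusted p = 0.0039) with all 5 SC EU libraries. On the TPM scale the groups overlapped over all 5 libraries, since SC EU replicates 1 and 2 held 170 and 290 against 81.3 to 151 in panned cells, and limma on TPM gave log2 -1.33, not called. Rab1a, the endoplasmic reticulum to Golgi Rab, had 227, 327 and 273 against 40.4, 23.7 and 55.7 CPM (log2 -2.78 ± 0.53, adjusted p = 0.0089) and an adjusted p of 0.056 with the trend removed. Their paralogs differed by less: Rab11b had log2 0.19 ± 0.45 and Rab1b 0.76 ± 0.66, neither called. Rab10 (log2 -3.75) and Rab8b (log2 -5.47), both of polarised exocytosis, were called lower in both fits. Rab20, called lower as well, passed the filter on low counts through the panned libraries alone. It rested on 0.0408 ± 0.0707 CPM in axonal RNA against 4.59 ± 4.42, and it kept its call in 5 of 12 alternatives.

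The second comparison set ribosome-bound against labelled RNA in the same target, at P14 and, with no library in common, at P10. At P14 the EU libraries are those of the first comparison. Rab11a, Rab1a and Rab5a, of recycling endosomes, the early secretory pathway and early endosomes, were called higher in TRAP at both ages. At P14, 55 members were tested and 8 were called, 14.5 percent, against 14.4 percent of all genes. The 7 called higher compare with 5.73 percent of all genes called higher, and the 1 called lower with 8.64 percent. At P10, 51 were tested and 7 were called, 13.7 percent against 17.4 percent of all genes; all 7 were higher, where 6.38 percent of all genes were called higher and 11.1 percent lower. The median log2 fold change of the members was 0.34 at P14 and 0.19 at P10, beside -0.01 and -0.08 over all genes. By role, 3 of 12 members of the endoplasmic reticulum and Golgi were higher at P14 and 2 of 12 at P10, and of 8 vesicle and secretory members tested at P14 and 7 at P10 none was called. The count at P14 ranged from 3 to 14 when single libraries were left out: leaving out TRAP replicates 3, 4 and 5 gave 4, 5 and 4, and leaving out EU replicate 3 gave 3 and EU replicate 5 gave 14. At P10 the fit lacking EU replicate 1 called 2, and that lacking EU replicate 2 called 4. With all 5 libraries a group at P14, Rab11a, Rab1b and Rab38 were called higher and Rab36 lower, 4 of 54 tested, against 8.76 percent of all genes.

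The CPM of Rab11a at P14 was 24.3, 26.8 and 26.3 in EU and 91.7, 139 and 215 in TRAP, and at P10 it was 31.9, 33.2 and 51.6 in EU and 290, 143 and 276 in TRAP. The groups did not overlap at either age. The log2 fold change was 2.53 ± 0.40 at P14 (adjusted p = 0.0051) and 2.6 ± 0.41 at P10 (adjusted p = 0.0043), and with the GC trend removed 1.93 (adjusted p = 0.023) and 3.61 (adjusted p = 0.0031). It kept its call in 12 of 13 alternatives at P14, losing it with limma on TPM, and in all 12 at P10. Rab11b, with 436, 508 and 309 CPM in EU and 293, 412 and 345 in TRAP at P14, gave log2 -0.25 ± 0.34 there and 0.81 ± 0.37 at P10, neither called.

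Rab1a, of the early secretory pathway, had 58.8, 34.9 and 77.7 CPM in EU and 294, 178 and 199 in TRAP at P14. At P10 the values were 33.0, 48.2 and 55.9 in EU and 145, 209 and 131 in TRAP, again without overlap. The log2 fold change was 1.97 ± 0.40 (adjusted p = 0.012) at P14 and 1.82 ± 0.37 (adjusted p = 0.0097) at P10, called in both GC fits as well; with all 5 libraries at P14 it was not called. For Rab1b the values were 1.15 ± 0.42 (adjusted p = 0.092) and 0.41 ± 0.39.

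Rab5a, of early endosomes, had 1.74, 1.88 and 5.54 CPM in EU and 55.0, 7.77 and 45.9 in TRAP at P14. At P10 EU held 5.41, 5.17 and 12.7 and TRAP 58.4, 22.8 and 24.7 CPM. TRAP lay above EU in every library, though by little in TRAP replicate 4 at P14. The log2 fold change was 3.57 ± 0.80 (adjusted p = 0.017) at P14 and 2.18 ± 0.57 (adjusted p = 0.025) at P10, also called with the trend removed. Rab5b (-0.56 ± 0.54 and -1.06 ± 0.65) and Rab5c (-1.04 ± 0.48 and -0.39 ± 0.36) lay on the other side of zero and were not called. The TRAP libraries of replicates 1 and 2 held 47.4 and 40.7 TPM of Rab5a against the 68.5 and 19.0 of the EU libraries of that series, and with all 5 libraries the call was lost, as it was at P14 without TRAP replicate 3 or 5 or EU replicate 3.

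At P14 the other members called higher were Rab18 (EU 8.01, 10 and 25.2, TRAP 135, 115 and 135 CPM, log2 3.16 ± 0.48, adjusted p = 0.0046), Rab28 (log2 2.17 ± 0.51), Rab6a (log2 2.33 ± 0.57) and Rab38, of melanosomes. Rab38, which passed the filter on low counts through the TRAP libraries alone, had no count in the 3 EU libraries and 1.16, 1.43 and 0.738 CPM in TRAP, at least 22.6-fold higher when 3 counts over the EU group are taken as the floor. Rab18, Rab28 and Rab6a each lost the call with all 5 libraries a group; of 13 alternatives Rab18 kept it in 12, Rab6a in 9 and Rab28 in 8. Rab36, a late endosome and Golgi Rab, was lower in TRAP at P14, with 13.5, 16.4 and 28.5 CPM against 44.1, 62.9 and 72.5 (log2 -1.62 ± 0.43, adjusted p = 0.030), a call kept in 8 of 13 alternatives.

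At P10 the others were Rab9, Rab10, Rab33a and Rab40b. Rab9, which returns receptors from late endosomes to the Golgi, had 5.75, 14.5 and 13.9 CPM in EU and 63.7, 56.0 and 93.2 in TRAP (log2 2.64 ± 0.46, adjusted p = 0.0060), and it kept its call in all 12 alternatives. At P14 Rab9 had the same log2 of 2.64, with an SE of 0.88 and an adjusted p of 0.067. Rab10 had log2 1.87 ± 0.47, Rab33a, of post-Golgi vesicles in growing axons, 2.06 ± 0.53, and Rab40b, which carries a SOCS box, 2.32 ± 0.68, the last with 9.84 ± 2.67 CPM in TRAP against 1.97 ± 1.10. Of 12 alternatives Rab10 and Rab33a kept their call in 7 and Rab40b in 4. Rab3a did not differ beyond its spread at either age (-0.73 ± 0.42, adjusted p = 0.27, and 0.13 ± 0.40, adjusted p = 0.85).

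**Figure D4:**
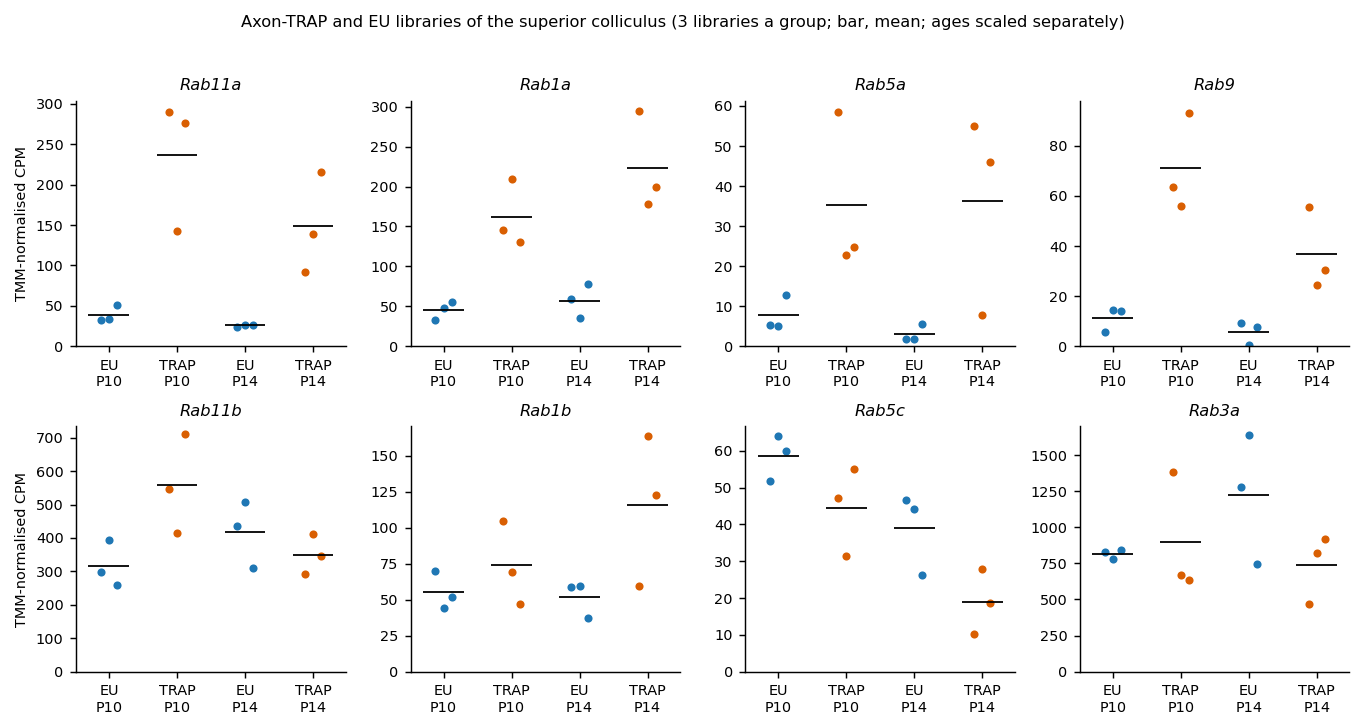
TMM-normalised CPM of 8 Rab genes in EU (blue) and axon-TRAP (orange) libraries of SC at P10 and P14, 3 libraries a group with the mean as a bar; the ages were scaled separately. Rab11a, Rab1a and Rab5a lie above EU in every TRAP library at both ages, as does Rab9, whereas the groups of Rab1b and Rab3a overlap at both ages.

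The difference between ages was tested itself, as the interaction of capture and age: of 55 members 0 were called (edgeR, 5 at an unadjusted p below 0.05), as were 0 percent of all genes, and the smallest adjusted p of a member was 0.41. With the GC trend removed, 10 members were called at P14 (18 percent of all genes called) and 12 at P10 (19.2 percent), and Rab11a, Rab5a, Rab1a, Rab28 and Rab18 were called higher in TRAP in that fit at both ages. Spearman's rho of the members with GC content was still -0.40 at P14 and -0.52 at P10 in it. Its calls are therefore not free of that relation. Microglia markers (7 genes) were higher in TRAP than in EU in these libraries, at 517 to 1130 against 192 to 338 TPM at P14 and 354 to 698 against 197 to 269 at P10, and ganglion cell markers were lower at P10 (1480 to 3090 against 4430 to 4630). Their part in the Rab differences was not tested. In LGN, with 2 EU libraries, 0 of 54 members were called by edgeR, against 1.4 percent of all genes. An unadjusted edgeR p below 0.05 held for 11 members and 4545 of 16561 genes, and DESeq2 called 3 members and 3397 genes. With the trend removed Rab11a (log2 4.80, from 1.04) and Rab1a (log2 3.23, from 0.11) were called there, against 6.86 percent. That fit moved the median of the members from 0.17 to 1.13 and of all genes from -0.24 to 0.09. It turned the members' rho with GC content from 0.58 to -0.43, so its fold changes are to be read against that shift.

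The comparisons over age and chase asked how labelled and ribosome-bound RNA shift as the visual system matures and as labelled RNA ages. By its label the P10 chase group was also collected at a later age than P10. The age of the label and of the animal cannot be told apart there. Oligodendrocyte markers summed to between 4170 and 6860 TPM in that chase group. From P10 to P14, Rab3d, a Rab of secretory granules, was the only one of 53 members called in SC EU, against 2.03 percent of all genes. Its CPM was 24.7, 22.8 and 21.5 at P10 and 4.64, 5.72 and 4.81 at P14, with no overlap (log2 -2.18 ± 0.48, adjusted p = 0.044). The count became 0 without P14 replicate 3 or 4 or without P10 replicate 1 or 3, and 9 without P14 replicate 5; with all 5 P14 libraries it was 0 (Rab3d log2 -1.58). With the GC trend removed 4 members were called, against 4.02 percent of all genes: Rab3d and Rab3b lower, Rab7 and Rab31 higher. Before that removal Rab3b had 125, 141 and 92.8 CPM at P10 and 40.7, 50.9 and 53.3 at P14. Oligodendrocyte markers summed to between 939 and 1870 TPM at P10 and between 7480 and 10400 in these P14 libraries, and their part in these differences was not tested.

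In TRAP from P10 to P14, 0 of 55 members were called by edgeR, against 0 percent of all genes. An unadjusted edgeR p below 0.05 held for 6 members and 2275 of 15752 genes, and DESeq2 called 1 member and 760 genes. The 4-day chase from P10 gave 0 of 52 by edgeR, against 0.00597 percent. An unadjusted edgeR p below 0.05 held for 10 members and 3030 of 16746 genes, and DESeq2 called 3 members and 983 genes. SC EU at 8 weeks against P14 also gave 0 of 52 by edgeR, against 0 percent. An unadjusted edgeR p below 0.05 held for 10 members and 1548 of 16942 genes, and DESeq2 called 4 members and 803 genes. Replicate 3 at 8 weeks stood apart: Rab3a was at 360 and 155 TPM in replicates 1 and 2 and at 1319 in replicate 3, and Rab1b at 8.18, 5.23 and 65.0. Without it, 10 members were called higher and 9 lower than at P14, in a fit whose share of all genes is not given. The median log2 fold change in the fit of all libraries was -0.70 for the 25 members richer in GC and 1.13 for the other 27.

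The axotomized sarm1ko group bears on RNA that persists in axons cut off from their cell bodies, since Sarm1 drives the breakdown of cut axons. Compared with the same wild-type P14 EU libraries, 23 of 52 tested members were called, 44.2 percent, against 37.6 percent of all genes. The 6 called higher compare with 16.8 percent of all genes called higher and the 17 called lower with 20.8 percent. The median log2 fold change was -0.23 over the members and 0.16 over all genes, and -0.47 and -0.03 with the GC trend removed. By role, 3 of 8 vesicle and secretory members, 4 of 10 of recycling and exocytosis and 4 of 7 of late endosomes, lysosomes and autophagy were lower and none higher, whereas 3 of 12 of the endoplasmic reticulum and Golgi were higher and 2 lower. All 6 called higher were among the 27 members poorer in GC and 16 of the 17 called lower among the 25 richer ones. With the GC trend removed 1 was called higher and 13 lower, against 17.1 percent of all genes called in either direction. On TPM, limma called 0 higher and 18 lower. Leaving out sarm1ko replicates 1, 2 and 3 gave 9, 14 and 9 calls, and leaving out wild-type replicates 3, 4 and 5 gave 13, 15 and 34. With all 5 wild-type libraries 4 of 52 were called, all lower, against 5.62 percent of all genes: Rab3a, Rab3b, Rab11b and Rab34. Ganglion cell markers summed to between 325 and 1270 TPM in the sarm1ko group; their part in these differences was not tested.

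Of the 23 members called, 3 kept the call in all 13 alternatives, each lower in the axotomized group: Rab3a, Rab3b and Rab11b. Rab4b, Rab5c and Rab8a lost it only with all 5 wild-type libraries. Rab3a fell from 903, 1170 and 512 CPM to 102, 133 and 101. Its log2 fold change was -2.94 ± 0.37 (adjusted p = 0.0017), -1.76 (adjusted p = 0.0064) with the GC trend removed and -2.64 (adjusted p = 0.031) with all 5 wild-type libraries. Rab3b fell from 30.0, 37.0 and 37.0 CPM to 6.33, 9.26 and 2.62 (log2 -2.50 ± 0.48). Rab3c, also of synaptic vesicles, had 160 ± 21.2 CPM against 88.9 ± 33.5, with log2 0.85 ± 0.33 (adjusted p = 0.062), and -1.05 (adjusted p = 0.024) with the trend removed, so its direction depends on the fit.

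In endosomes, Rab11b fell from 307, 360 and 213 CPM to 61.5, 88.4 and 61.9, with log2 -2.05 ± 0.32 (adjusted p = 0.0024) and -2.68 with the trend removed. Rab11a had 17.1, 19.0 and 18.1 CPM in wild type and 14.3, 15.9 and 12.5 in the axotomized group. Its log2 was -0.35 ± 0.36 (adjusted p = 0.47, edgeR), and it was called lower in the GC fit (log2 -2.77). On TPM Rab11a had 48.9, 41.5 and 38.4 in these wild-type libraries and 16.1, 19.0 and 5.45 in the axotomized group. Whether limma on TPM called it is not given. Rab4b fell from 73.4, 113 and 54.3 CPM to 11.9, 16.2 and 10.6. Rab5c fell from 32.9, 31.4 and 18.1 to 4.98, 4.34 and 5.25, and Rab8a, of exocytosis, from 56.5, 52.3 and 57.0 to 14.4, 18.4 and 15.9. None of these groups overlapped.

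Rab5a was called higher against the second series alone. It had 1.22, 1.33 and 3.82 CPM in wild type and 10.7, 11.5 and 13.1 in the axotomized group, with log2 2.47 ± 0.61 (adjusted p = 0.012) and 1.67 (adjusted p = 0.041) with the trend removed, but the call was lost without wild-type replicate 3, without sarm1ko replicate 1 or 3, and with limma on TPM. Wild-type replicates 1 and 2 held 68.5 and 19.0 TPM of Rab5a, above the 3.50, 4.69 and 8.97 of the axotomized group, and with all 5 wild-type libraries its log2 fold change was -0.11. The other 5 called higher, Rab6a, Rab21, Rab28, Rab33b and Rab39b, had log2 fold changes of 1.04 to 1.95 and lost the call with the trend removed, and all of them except Rab33b changed sign. None of the 5 was called with all 5 wild-type libraries, and Rab6a then had log2 -1.3. Of the members called lower, Rab4a, Rab15, Rab24, Rab26, Rab33a, Rab34, Rab35, Rab36, Rab42 and Rab1b lost the call with the GC trend removed. Rab7, of late endosomes, had log2 -0.67 ± 0.31 (adjusted p = 0.11) and was called lower with the trend removed; its relative Rab7b was called lower in both (log2 -1.56 and -1.83).

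**Figure D5:**
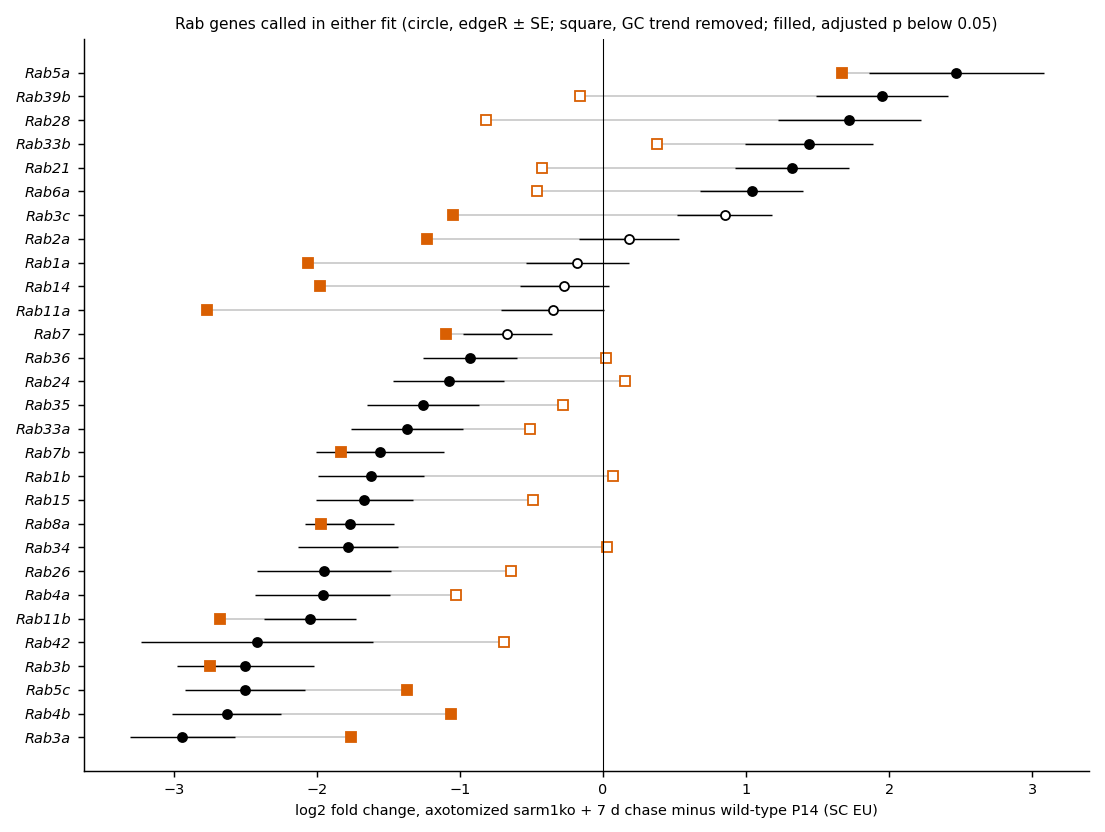
Log2 fold change of the Rab genes called in either fit in the axotomized sarm1ko group against wild-type P14 SC EU (circles, edgeR with SE bars; squares, after removal of each library's GC trend; filled symbols, adjusted p below 0.05). Rab3a, Rab11b, Rab8a, Rab3b, Rab4b and Rab5c are filled and below 0 in both fits, and Rab5a is filled and above 0 in both, though at -0.11 with all 5 wild-type libraries.

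Libraries labelled fmr1ko were compared with wild type to ask how loss of the RNA-binding protein FMRP alters axonal RNA. In SC EU 0 of 52 members were called by edgeR, against 1.11 percent of all genes. An unadjusted edgeR p below 0.05 held for 16 members and 3912 of 16546 genes, and DESeq2 called 11 members and 2360 genes. Without wild-type replicate 5 edgeR called 10 members higher and 3 lower, in a fit whose share of all genes is not given. In SC TRAP 0 of 54 were called by edgeR, against 0 percent, and 4 without fmr1ko replicate 2, the library with rod markers. An unadjusted edgeR p below 0.05 held for 4 members and 2879 of 16115 genes, and DESeq2 called 3 members and 2435 genes. With all 5 wild-type TRAP libraries 1 was called, Rab38, at 0 in the libraries labelled fmr1ko. In eye FACS cells 0 of 45 were called by edgeR, against 0.0593 percent. An unadjusted edgeR p below 0.05 held for 5 members and 1932 of 15165 genes, and DESeq2 called 1 member and 1092 genes. The interaction of capture and fmr1ko, that is, the difference of the fmr1ko effect between TRAP and EU, called 2 of 55 members, against 5.92 percent of all genes. They were Rab38 and Rab20, which entered the test only through the groups where they were seen, both at 0 in all 3 TRAP libraries labelled fmr1ko, which is at least 39.9-fold and at least 64.2-fold lower than in wild-type TRAP with a floor of 3 counts over the group. Of 12 fits that each left out 1 library, 8 called no member: those without any 1 fmr1ko EU library, any 1 wild-type TRAP library, or wild-type EU replicate 3 or 4. With the GC trend removed Rab18 joined them, 3 called against 8.9 percent of all genes.

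Between targets, SC against LGN at P14 with the first series of libraries, edgeR called 0 of 50 members in EU and 0 of 54 in TRAP. It called 0 percent of all genes in both. In EU an unadjusted edgeR p below 0.05 held for 3 members and 497 of 15448 genes, and DESeq2 called 1 member and 72 genes. In TRAP such a p held for 2 members and 412 of 15551 genes, and DESeq2 called 1 member and 70 genes. Paired by title-code number, 1 was called in EU.

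The regulators and effectors of Rab proteins, 95 genes listed by class, were tested in the same fits. In SC EU against panned EU, 6 of 89 tested were higher and 8 lower (all genes, 11 and 11.4 percent). In TRAP against EU, 1 of 92 was higher and 6 lower at P14 (all genes, 5.73 and 8.64 percent), and 2 of 90 higher and 7 lower at P10 (6.38 and 11.1 percent). In the axotomized sarm1ko group 20 of 90 were higher and 22 lower (16.8 and 20.8 percent), with 12 of 34 effectors among the first and 8 of 24 GTPase-activating proteins among the second. Gdi2, a GDP dissociation inhibitor that extracts Rab proteins from membranes, was the clearest in the first, with 9.54 ± 10.8 CPM in axonal RNA and 649 ± 371 in panned cells (log2 -6.09 ± 1.01, adjusted p = 0.0056, and -5.55 with the trend removed). Kif1a, the kinesin that carries Rab3 vesicles, was higher in axonal RNA (log2 2.6 ± 0.49), as was the Rab11 effector Rab11fip4 (log2 3.59 ± 0.74), and neither was called with the trend removed. Lower in TRAP at P14 were Rab3gap2, a subunit of the Rab3 GTPase-activating complex (13.3 ± 0.810 against 55.8 ± 8.26 CPM), the Rab3 effector Rph3a (158 ± 33.0 against 529 ± 139) and Unc13d (log2 -3.03 ± 0.69), a Rab27 effector. At P10 Unc13d (log2 -4.04 ± 0.76), the Rab7 effector Fyco1 (2.15 ± 1.06 against 26.1 ± 2.24 CPM) and the Rab6 effector Bicd1 (log2 -2.77 ± 0.53) were lower in TRAP. All 3 at each age were called with the trend removed.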

How the data were processed

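Per the submitters' processing notes, the authors quantified reads with Salmon against mm10; the version and the strand setting were not stated in the labels used here. The deposited tables hold estimated counts per Ensembl gene and TPM, as the authors scaled them. Of 54331 genes, 54097 matched a symbol. Members, roles and partner lists were chosen with earlier results of these data known.

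Estimated counts were rounded, filtered with filterByExpr, scaled by TMM and tested per comparison, with only the 2 groups compared in the fit (the 4 groups concerned for an interaction), by edgeR 4.0.16 (quasi-likelihood F test, two-sided, Benjamini-Hochberg over all tested genes, called at an adjusted p below 0.05) in R 4.3.3. Alternatives were RLE factors, no filter, DESeq2 1.42.0, limma 3.58.1 on log2(TPM + 1), a replicate block from the title codes, all 5 P14 libraries, each library left out, and, chosen after seeing the data, all 5 libraries in further comparisons and removal of each library's loess trend (span 0.5) on the GC content of the longest GENCODE M21 transcript. Fits by edgeR, DESeq2 and limma were run on simulated data with 200 changed genes. Those data had the same dispersion for every gene and no GC trend. They do not measure how the fits behave on these libraries, and their outcome is not given. The SE of an edgeR log2 fold change is its absolute value divided by the square root of the F statistic. The P14 SC EU libraries serve in several comparisons, which are therefore not independent. Reads of close paralogs may be divided wrongly between them.

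Named in full were members called without overlap in the SC EU against panned EU and TRAP against EU comparisons (at most 8 a direction), members called elsewhere, the 8 with the highest median TPM in SC EU at P14, Rab3 and Rab27 genes, Rab5a, Rab7, Rab11a and Rab11b, and the 3 partners with the smallest adjusted p. Rab5b was added as a paralog after its values were seen. No 2 libraries held identical values, and the table columns all matched a sample.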

Additional observations from a re-analysis of the deposited data

Results flagged for a closer look

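The interaction of capture and fmr1ko separated Rab38 (fitted log2 difference -14.41) and Rab20 (-12.03), by the test of the difference in fmr1ko effect between TRAP and EU libraries. Both are at 0 in all TRAP libraries labelled fmr1ko and entered the test only through the groups where they were seen, so the fitted values are not bounds, and fmr1ko against wild-type TRAP alone called 0 members. The number of members called in this test was 0 in 8 of the 12 fits that each left out 1 library, 1 without SC EU P14 replicate 5, 2 without fmr1ko TRAP replicate 1, and 6 without fmr1ko TRAP replicate 2 or 3.

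Among the 5 wild-type SC EU libraries at P14, single libraries of the first code series lay far from the other 4 in TPM. Replicate 1 held 547 of Rab6a, 68.5 of Rab5a, 69.4 of Rab36, 28.0 of Rab27b and 15.8 of Rab3d. Replicate 2 held 131 of Rab3b and 23.4 of Rab28. In all, 12 of 49 members tested in this group had such a library, named or not, by a ratio of gap to range above 0.71 on TPM. The members share the same 5 libraries and are not independent, so this count is not set against chance. These libraries had the lowest counts of the group, and the cause was not tested.

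Among the 5 SC TRAP libraries at P14, 4 of 53 members had a library apart. The named ones were Rab27a at 8.13 TPM in replicate 5, Rab38 at 2.93 in replicate 2 and Rab3b at 155 in replicate 4.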

How the results depend on the processing

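Counts of members called are given here as higher and lower together. Shares of all genes are not given for the leave-one-out, no-filter, limma, eye FACS, RLE and block fits. Those counts show how calls depend on the fit, not a result about Rab genes. With each library left out in turn they ranged from 3 to 12 for SC EU against panned EU (10 with all), 3 to 14 for TRAP against EU at P14 (8), 2 to 9 at P10 (7), 0 to 1 in LGN (0), 0 to 9 for EU at P14 against P10 (1), 0 to 19 for 8 weeks against P14 (0), 9 to 34 for sarm1ko (23), 0 to 13 for fmr1ko EU (0), 0 to 4 for fmr1ko TRAP (0), 0 to 1 for SC against LGN EU (0) and 0 to 6 for the interaction of capture and fmr1ko (2). DESeq2 called 18, 13, 13, 3, 7, 1, 4, 3, 11, 3, 1, 1 and 1 where edgeR called 10, 8, 7, 0, 1 and otherwise 0, in the order SC EU against panned EU, TRAP against EU at P14, P10 and LGN, EU at P14 against P10, TRAP at P14 against P10, 8 weeks, chase, fmr1ko EU, TRAP and FACS, and SC against LGN in EU and TRAP. Over all genes, in the same order, DESeq2 called 5663, 3840, 3937, 3397, 1381, 760, 803, 983, 2360, 2435, 1092, 72 and 70. Without the filter on low counts the counts were 13 for TRAP against EU at P14, 11 at P10 and 2 in LGN, 5 for EU at P14 against P10, 1 for TRAP at P14 against P10, 2 at 8 weeks, 3 for the chase and 11 for fmr1ko EU. With limma on TPM they were 22 for SC EU against panned EU, 3 for TRAP against EU at P10, 0 for EU at P14 against P10 and 1 for fmr1ko EU. Removing the GC trend gave 6, 12, 2, 4 and 14 for SC EU against panned EU, TRAP against EU at P10 and LGN, EU at P14 against P10 and sarm1ko. Eye FACS cells as the soma gave 20, all 5 P14 libraries gave 4 for TRAP against EU, 0 for EU at P14 against P10, 4 for sarm1ko and 1 for fmr1ko TRAP (the last 3 added after seeing the data), and RLE factors gave 1 in LGN. Nothing in the labels says that title-code numbers pair the libraries, and correlations of deviations ran from -0.68 to 0.42 (0.33 to 0.42 in the pairs of SC with LGN). With them as a replicate block the counts were 3 for TRAP against EU at P10, 4 for EU at P14 against P10 and 1 for SC against LGN in EU.

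Single sarm1ko fold changes that changed sign with the GC trend removed were Rab1b (0.07), Rab21 (-0.43), Rab24 (0.15), Rab28 (-0.82), Rab34 (0.03), Rab36 (0.02), Rab39b (-0.16) and Rab6a (-0.46), with limma on TPM Rab21 (-0.13), and with all 5 wild-type libraries Rab5a (-0.11) and Rab6a (-1.3); the cause was not tested. No other fold change of a called member reversed in the alternatives run. Members not called were not followed through all alternatives, and among them Rab3c changed sign in the sarm1ko comparison with the trend removed (0.85 to -1.05).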
